A study of Mus musculus with 12 samples.

Results

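The proteasome subunits and assembly factors described here are the 50 genes, of 19505 named genes on the array, whose symbol begins with Psma, Psmb, Psmc, Psmd, Psme, Psmf or Psmg. Each is represented by the probe set with the highest mean signal among those carrying its symbol. A probe set is a group of short oligonucleotides that together report the transcripts of a gene. Of the 50 genes, 48 encode proteins of the proteasome or factors that assemble or regulate it. The other 2, Psmc3ip and Psme3ip1, share the letters only, because their products bind a subunit: Psmc3ip encodes the meiotic recombination protein Hop2, and Psme3ip1 encodes a partner of PA28 gamma. Psmb5, the gene of a catalytic beta subunit, was not analysed here.

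Signals came from GSC-H cells, mouse glioma stem cells derived from late-stage tumors that formed from Ink4a/Arf-null neural stem/progenitor cells carrying a retroviral vector for human H-Ras V12. All groups, controls included, thus share the Ink4a/Arf deletion and the oncogene, and come from a single engineered line. The cells were exposed for 24 h to 3 mM doranidazole (D), a 2-nitroimidazole developed as a radiosensitizer, or to phosphate-buffered saline (P). Exposure took place in normoxia (Nx, 21% O2) or in hypoxia (Hx, 1% O2), which gives the groups Nx P, Nx D, Hx P and Hx D with 3 arrays each. The paper describes the replicates as independent samples of a single experiment. The p-values thus measure the spread between samples within that experiment, and not between experiments.

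The proteasome is the main protease of the cytosol and nucleus. Its 20S core is a barrel of stacked rings, in which the outer alpha subunits (Psma genes) gate the entrance and some of the inner beta subunits (Psmb genes) cut proteins. The 19S cap, built from a ring of ATPases (Psmc genes) and from non-ATPase subunits (most Psmd genes), recognizes proteins tagged with ubiquitin, removes the tag and threads them into the core; cap and core together form the 26S proteasome. Interferon replaces the catalytic beta subunits with immunoproteasome subunits and induces the PA28 activator, which changes the peptides made for antigen presentation. When proteasome activity falls short, mammalian cells raise subunit genes together through the transcription factor NFE2L1, which acts at antioxidant response elements in their promoters. Proteasome inhibitors have been tested as drugs against glioma.

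Promoter windows of 42 of the 50 genes were found by symbol and gene ID in the RefSeq promoter table (GRCm38.p6), each covering 250 bases before and 50 bases after a transcription start. Of the 9 members that changed in hypoxia in every setting in which they were tested, 3 held the core of an interferon stimulated response element (ISRE). Their windows are shown for that reason. Of all genes with a window, 3.99% held this core. The windows were thus picked by both the change and the letters, and a link between them was not tested. Psmb3 and Psmd4 rose and Psme1 fell; the windows of the other 6 (Psma2, Psma5, Psmb11, Psmd5, Psmd8 and Psmd11) held no such letters. Psmb3 lies at chr11:97703184-97703483 on the plus strand, Psmd4 at chr3:95042565-95042864 on the minus strand and Psme1 at chr14:55578244-55578543 on the plus strand. Capitals mark the letters CCAAT, the CCAAT box, and the ISRE core, which is GAAA, any 2 bases and GAAA again, on either strand.
Psmb3: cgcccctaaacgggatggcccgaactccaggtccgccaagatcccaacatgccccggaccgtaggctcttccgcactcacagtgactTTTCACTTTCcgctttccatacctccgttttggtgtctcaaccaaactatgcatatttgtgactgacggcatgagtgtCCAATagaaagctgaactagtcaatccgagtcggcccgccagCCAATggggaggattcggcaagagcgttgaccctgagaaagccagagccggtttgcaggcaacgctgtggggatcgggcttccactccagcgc
Psmd4: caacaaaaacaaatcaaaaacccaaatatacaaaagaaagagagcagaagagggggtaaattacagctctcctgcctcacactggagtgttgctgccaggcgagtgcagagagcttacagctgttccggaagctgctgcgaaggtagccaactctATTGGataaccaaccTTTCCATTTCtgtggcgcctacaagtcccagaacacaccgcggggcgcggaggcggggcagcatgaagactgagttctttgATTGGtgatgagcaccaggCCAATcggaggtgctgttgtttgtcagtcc
Psme1: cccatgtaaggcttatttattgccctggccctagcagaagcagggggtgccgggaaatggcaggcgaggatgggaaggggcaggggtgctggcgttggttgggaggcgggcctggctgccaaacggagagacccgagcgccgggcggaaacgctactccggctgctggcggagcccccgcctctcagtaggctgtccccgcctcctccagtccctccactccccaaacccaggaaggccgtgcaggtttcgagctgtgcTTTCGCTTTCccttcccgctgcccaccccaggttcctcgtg
The window of Psme1 holds 1 ISRE core and no CCAAT, that of Psmb3 holds 1 ISRE core and 2 CCAAT, and that of Psmd4 holds 1 ISRE core and 3 CCAAT.

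The letters TGACNNNGC, the core of an antioxidant response element, were found on either strand in the windows of 5 genes, Psmb6, Psmc6, Psmd9, Psmd12 and Psme4. These stretches are shown because NFE2L1 and NFE2L2 bind such letters; capitals mark the match.
Psmb6: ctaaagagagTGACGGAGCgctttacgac
Psmc6: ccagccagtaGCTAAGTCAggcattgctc
Psmd9: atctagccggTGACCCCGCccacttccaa
Psmd12: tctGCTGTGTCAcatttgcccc
Psme4: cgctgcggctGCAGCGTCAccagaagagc
The matches of Psmb6 and Psme4 begin 9 and 7 bases before the start, that of Psmd9 31, and those of Psmc6 and Psmd12 227 and 247 bases before it. In all, TGACNNNGC was present for 11.9% of the matched members and 14.0% of all genes with a window, CCAAT for 38.1% and 41.1%, the ISRE core for 11.9% and 3.99%, and TTCNNNGAA, the gamma activated site, for 7.14% and 9.55%. The 5 members with the ISRE core were Psmb3, Psmd4, Psmd9, Psme1 and Psmg4, and the 3 with TTCNNNGAA were Psmb8, Psmd2 and Psmg1. A match describes letters in the window and not a site in use.

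The log2 signals of the 50 genes were fitted with limma over the 12 arrays, and a gene passed at an adjusted p under 0.05 (Benjamini-Hochberg over all 22206 probe sets). Signals of different probe sets are not on a common scale, so levels are compared only within a gene. RNA was taken from bulk cultures, where fewer cells of a type and less RNA per cell cannot be told apart. Median signals of the arrays ranged from 4.65 to 4.88, with the Hx D arrays at 4.75 to 4.88 and the Hx P arrays at 4.68 to 4.72. With all medians set equal, 12 members were higher and 3 lower in hypoxia with doranidazole, in place of the 19 and 2 given below. The share of higher calls was 80.0% in place of 90.5%. Over all probe sets, 9.24% were then higher and 17.1% lower, in place of 12.6% and 15.1%. Cdkn2a, the deleted locus, gave group means of 2.10 to 2.31. Among markers, 3 of 5 neural and glioma stem cell genes fell with doranidazole in hypoxia, against 15.1% of all probe sets. They were Sox2 (by 3.50), Olig2 (by 2.08) and Vim (by 0.72 on the log2 scale). Cd44 (-0.52) and Nes (0.27) did not pass. The mean signal of all 5 stem cell genes was 12.6 to 12.8 in Hx D and 14.0 to 14.1 in Hx P. Of 3 endothelial markers, Pecam1 rose by 1.28, while Cdh5 and Cldn5 did not pass (0.07 and 0.38), against 12.6% higher of all probe sets. The endothelial list's mean signal was 3.81 to 4.02 in Hx D and 3.15 to 3.45 in Hx P. None of the measured 3 neuronal, 2 oligodendrocyte and 4 leukocyte markers passed, and the 3 lists had mean signals of 2.57 to 3.50 over the arrays. The part of these marker changes and of the array medians in the results below was not tested.

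**Figure D1:**
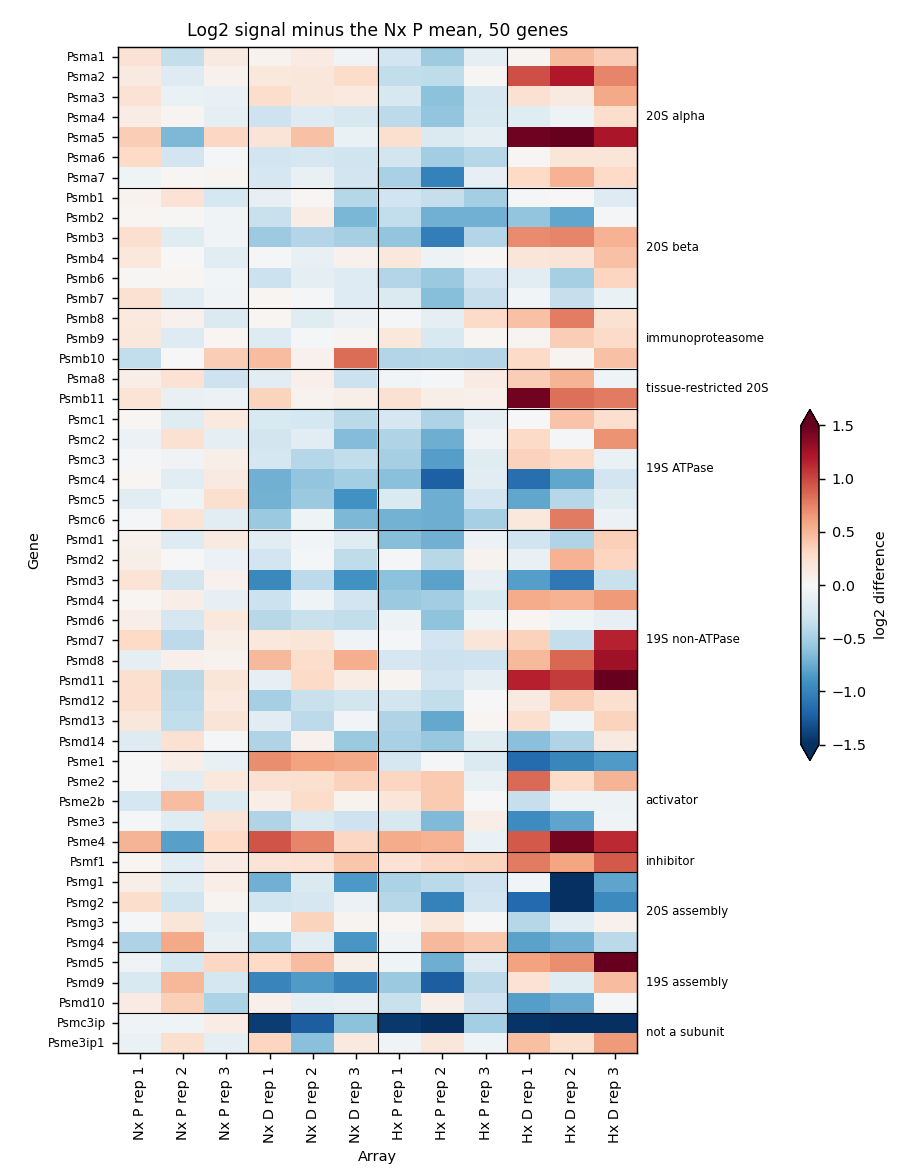
Log2 signal of each of the 50 genes (rows, grouped by role) in each of the 12 arrays (columns), as the difference from the gene's mean over the 3 Nx P arrays; red is higher, blue lower, and colors end at 1.5 in either direction. Most 20S and 19S rows are pale to blue in Nx D and Hx P and pale to red in Hx D, whereas Psme1 is red in Nx D and blue in Hx D.

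Doranidazole under hypoxic conditions raised 19 of the 50 genes and lowered 2, against 12.6% higher and 15.1% lower of all probe sets. The median change over the members was 0.41 on the log2 scale, and 0.09 over all probe sets. Of the 30 constitutive 26S subunits 14 rose, 27 had a positive difference, and their median was 0.49. The 3 negative ones, Psmc4, Psmc5 and Psmd3, did not pass. The 2 genes that fell were the activator subunit Psme1 and the assembly chaperone Psmg4. Without Hx P replicate 2, 10 members rose and 2 fell, against 9.66% higher and 13.3% lower of all probe sets. Psma1, Psma3, Psma6, Psmb10, Psmc1, Psmc2, Psmc3, Psmd9, Psmf1 and Psmg4 no longer passed there, and the chaperone gene Psmg2 passed as lower.

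Of the 7 genes of the 20S alpha ring, 6 rose with doranidazole in hypoxia and all 7 differences were positive, with a median of 0.68. Psma5, whose product is the alpha 5 subunit, had log2 signals of 12.35, 11.31 and 12.30 in Nx P and 12.17, 12.42 and 11.89 in Nx D. In hypoxia they were 12.23, 11.76 and 11.85 with PBS and 13.45, 13.84 and 13.21 with doranidazole. All 3 Hx D arrays of Psma5 lay above the other 9 arrays, and Nx P replicate 2 was the lowest. The change in hypoxia was 1.55 ± 0.28 (SE, n = 3 per group), or 2.93-fold, with an adjusted p of 0.00123 by limma. Psma2 rose by 1.21 ± 0.18 (SE), Psma7 by 0.91 ± 0.21, Psma3 by 0.68 ± 0.18, Psma1 by 0.62 ± 0.20 and Psma6 by 0.54 ± 0.18. Psma4 differed by 0.41 ± 0.17 (SE) and did not pass (limma, adjusted p = 0.101), although its 3 Hx D arrays lay above its 3 Hx P arrays.

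The beta ring held 1 gene that rose of 6 measured constitutive subunits. Psmb3, a structural subunit without a catalytic site and the first of the windows printed above, had log2 signals of 11.85, 11.42 and 11.55 in Nx P and 11.06, 11.16 and 11.10 in Nx D. Its signals were 11.01, 10.57 and 11.16 in Hx P and 12.32, 12.34 and 12.13 in Hx D. All Hx D arrays were thus above every other array of Psmb3, and all Nx D and Hx P arrays were below the Nx P arrays. The rise in hypoxia was 1.35 ± 0.19 (SE, n = 3 per group), or 2.54-fold (limma, adjusted p = 0.000166). The other constitutive beta subunits, Psmb1, Psmb2, Psmb4, Psmb6 and Psmb7, differed by 0.14 to 0.32 in hypoxia and did not pass.

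Psmb6 and Psmb7 encode catalytic subunits, for the caspase-like and trypsin-like sites. Psmb6 had log2 signals of 13.58, 13.59 and 13.52 in Nx P, 13.25, 13.42 and 13.38 in Nx D, 13.13, 13.01 and 13.28 in Hx P and 13.39, 13.07 and 13.89 in Hx D. Psmb7 had log2 signals of 14.87, 14.47 and 14.59 in Nx P, 14.68, 14.62 and 14.45 in Nx D, 14.42, 14.01 and 14.30 in Hx P and 14.60, 14.30 and 14.54 in Hx D. For both, the Hx D and Hx P arrays overlapped, and every Hx P array lay below every Nx P array. With 95% intervals of -0.12 to 0.75 for Psmb6 and -0.15 to 0.63 for Psmb7, a rise in hypoxia of the size seen for Psmb3 lay outside the interval of either.

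The immunoproteasome genes encode the subunits that take the places of these catalytic subunits after interferon. Psmb8 had log2 signals of 3.50, 3.41 and 3.13 in Nx P, 3.38, 3.16 and 3.26 in Nx D, 3.31, 3.20 and 3.64 in Hx P and 3.79, 4.12 and 3.58 in Hx D. Psmb9, the counterpart of Psmb6, had 3.52, 3.17 and 3.39 in Nx P, 3.17, 3.34 and 3.40 in Nx D, 3.51, 3.13 and 3.39 in Hx P and 3.41, 3.73 and 3.65 in Hx D. In both genes the Hx D and Hx P arrays overlapped, and the Psmb8 arrays of Hx D lay above those of Nx P and Nx D. The differences in hypoxia, 0.45 for Psmb8 and 0.25 for Psmb9, did not pass. Both genes gave dim signals, at percentiles 31.8 and 30.5 of mean signal over all probe sets. After quantile scaling the median of the 3 immunoproteasome genes was 0.20, in place of 0.45. The part of dim signal in these differences was not tested. Psmb10, the counterpart of Psmb7, had 4.41, 4.77 and 5.15 in Nx P, 5.24, 4.84 and 5.61 in Nx D, 4.34, 4.35 and 4.34 in Hx P and 5.07, 4.82 and 5.22 in Hx D. The Hx P arrays of Psmb10 were the lowest of all 12 and lay within 0.02 of each other, and the Hx D arrays lay within the range of the normoxic groups. Its rise in hypoxia was 0.70 ± 0.23 (SE, n = 3 per group; limma, adjusted p = 0.0390), a call made in 11 of 22 settings and absent under quantile and loess scaling.

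The 2 tissue-restricted core genes gave dim signals, with means below the 30th percentile of all probe sets. Psmb11, the catalytic beta subunit of thymic epithelium, had log2 signals of 2.73, 2.41 and 2.44 in Nx P, 2.86, 2.58 and 2.62 in Nx D, 2.76, 2.61 and 2.60 in Hx P and 3.98, 3.36 and 3.31 in Hx D. It rose by 0.89 ± 0.20 (SE; limma, adjusted p = 0.00495), with all Hx D arrays above the other 9. Psma8, the alpha subunit of male germ cells, ranged from 2.60 to 3.44 over the arrays and did not pass (0.25). The median change of all probe sets in hypoxia was 0.09, and 0.005 with those below the 30th percentile left out. After quantile scaling the median of the 2 tissue-restricted genes was 0.37, in place of 0.57, and 1 of them passed. The part of this shift of dim probe sets in the rise of Psmb11 was not tested.

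**Figure D2:**
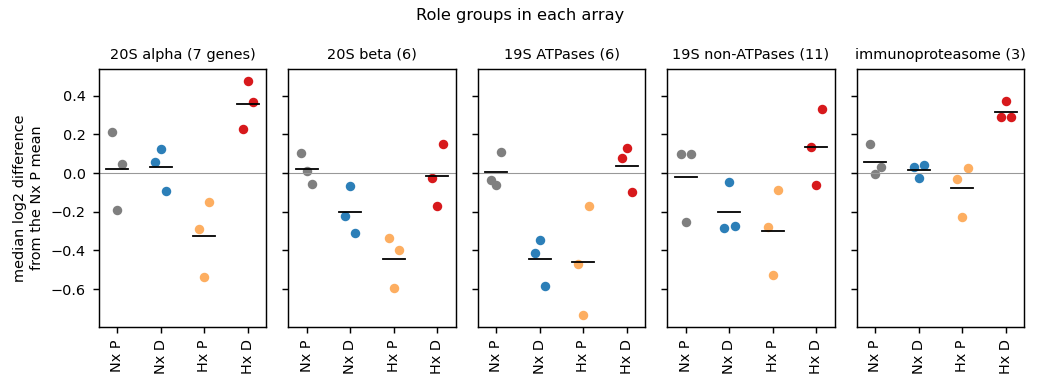
Median log2 difference from the Nx P mean over the genes of each role, for each array (points, with the bar at the mean of 3 arrays), in 5 panels on a common axis. The Hx P arrays have the lowest mean in each panel, and for alpha subunits the 3 Hx D arrays (0.23 to 0.48) lie above all other arrays.

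In the 19S cap, 4 of 6 ATPase genes and 3 of 11 non-ATPase genes rose with doranidazole in hypoxia. The ATPases, which unfold substrates and open the gate of the core, rose by 0.93 ± 0.24 (SE) for Psmc6, 0.72 ± 0.24 for Psmc2, 0.68 ± 0.19 for Psmc3 and 0.51 ± 0.17 for Psmc1. Psmc4 and Psmc5 differed by -0.06 and -0.05 (limma, adjusted p = 0.887 and 0.889). Their 95% intervals reached 0.52 and 0.41, so the ATPase genes did not all show a rise of the size of Psmc6.

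Psmd11, which encodes the clamp between the cap's lid and the core (Rpn6), showed the largest rise among the cap genes. Its log2 signals were 12.84, 12.18 and 12.77 in Nx P and 12.47, 12.88 and 12.70 in Nx D. In hypoxia they were 12.63, 12.31 and 12.45 with PBS and 13.75, 13.64 and 14.28 with doranidazole. The first 3 groups of Psmd11 overlapped, and the Hx D arrays stood above all of them. The change was 1.43 ± 0.23 (SE, n = 3 per group), or 2.70-fold (limma, adjusted p = 0.000463). Psmd8, a lid subunit (Rpn12), rose by 1.17 ± 0.20 (SE), and Psmd4, the ubiquitin receptor Rpn10, rose by 1.01 ± 0.16.

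The other non-ATPase genes did not pass. Psmd7, Psmd12 and Psmd13 of the lid differed by 0.42, 0.46 and 0.57, and Psmd6 by 0.20. The scaffold genes Psmd1 and Psmd2 differed by 0.35 and 0.37, Psmd3 by -0.23, and Psmd14, the deubiquitinase that removes ubiquitin chains from substrates, by 0.09 (95% interval -0.42 to 0.61).

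The activators bind the ends of the core in place of the cap. Psme1 and Psme2 encode the alpha and beta subunits of PA28, which form a common ring. Psme1 had log2 signals of 14.31, 14.41 and 14.19 in Nx P, 14.99, 14.91 and 14.87 in Nx D, 14.05, 14.28 and 14.09 in Hx P and 13.15, 13.33 and 13.46 in Hx D. All Nx D arrays of Psme1 were above all others, and all Hx D arrays were below all others. In hypoxia Psme1 fell by 0.83 ± 0.16 (SE, n = 3 per group), to 0.563 of its level with PBS (limma, adjusted p = 0.00160). In normoxia the difference was 0.62 ± 0.16 (SE), or 1.54-fold, and did not pass (limma, adjusted p = 0.0777).

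Psme2 had log2 signals of 9.48, 9.31 and 9.63 in Nx P, 9.70, 9.71 and 9.82 in Nx D, 9.80, 9.87 and 9.37 in Hx P and 10.32, 9.75 and 9.99 in Hx D. It differed by 0.34 in hypoxia with a 95% interval of -0.09 to 0.76, above the whole interval of its partner Psme1 (-1.17 to -0.49). Psme2b, a near copy of Psme2 whose signal may be shared with it, ranged from 6.00 to 6.82 over the arrays and differed by -0.36.

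Psme3, the nuclear activator PA28 gamma, had log2 signals of 14.11, 13.94 and 14.32 in Nx P, 13.67, 13.90 and 13.82 in Nx D, 13.88, 13.47 and 14.22 in Hx P and 13.18, 13.33 and 14.05 in Hx D. Its groups overlapped in hypoxia, with a difference of -0.34. Psme4, the activator PA200, had 13.74, 12.41 and 13.53 in Nx P, 14.17, 13.96 and 13.54 in Nx D, 13.79, 13.75 and 13.13 in Hx P and 14.15, 14.67 and 14.35 in Hx D. The Hx D arrays of Psme4 lay above the Hx P arrays, with a difference of 0.83 ± 0.32 (SE) that did not pass (limma, adjusted p = 0.0767) but passed after quantile or loess scaling. Psmf1, the inhibitor PI31, had 12.14, 11.96 and 12.23 in Nx P, 12.32, 12.33 and 12.53 in Nx D, 12.33, 12.42 and 12.45 in Hx P and 12.89, 12.71 and 13.04 in Hx D. The groups of Psmf1 were in the order Nx P, then Nx D and Hx P with overlap, then Hx D, and its rise in hypoxia was 0.48 ± 0.16 (SE; limma, adjusted p = 0.0420). That call was made in 6 of 22 settings.

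**Figure D3:**
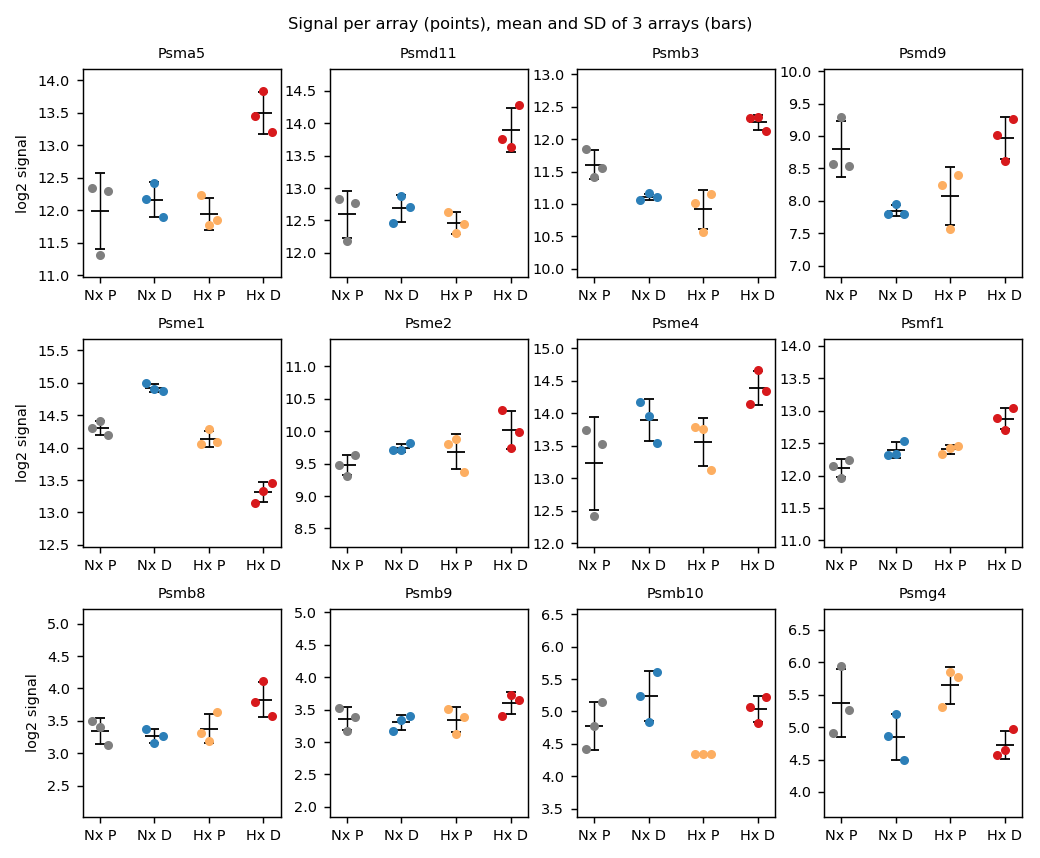
Log2 signal (vertical axis, spanning 3.2 units in each panel) of 12 genes in each array (points) of the 4 groups, with the mean and SD of 3 arrays. Psma5, Psmd11 and Psmb3 are highest in Hx D, Psme1 is highest in Nx D and lowest in Hx D, and the Hx D and Hx P arrays of Psmb8 and of Psmb9 overlap.

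The Psmg genes encode the chaperones PAC1 to PAC4, which build the alpha ring of the core, and all 4 had negative differences in hypoxia, with a median of -0.51. Psmg4 had log2 signals of 4.91, 5.94 and 5.26 in Nx P, 4.86, 5.20 and 4.50 in Nx D, 5.31, 5.85 and 5.77 in Hx P and 4.57, 4.64 and 4.97 in Hx D. The Hx D arrays lay below the Hx P arrays and within the range of Nx D. Psmg4 fell by 0.92 ± 0.27 (SE, n = 3 per group; limma, adjusted p = 0.0239). Psmg1, Psmg2 and Psmg3 differed by -0.39, -0.63 and -0.23 (limma, adjusted p = 0.377, 0.0574 and 0.369). Psmg2 passed as lower in 5 settings, equal array medians among them.

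The chaperones of the 19S base, which hold the ATPases while the ring forms, included 2 genes that rose. Psmd5 rose by 1.32 ± 0.28 (SE, limma, adjusted p = 0.00374). Psmd9 had log2 signals of 8.56, 9.30 and 8.53 in Nx P, 7.80, 7.95 and 7.80 in Nx D, 8.25, 7.56 and 8.40 in Hx P and 9.01, 8.62 and 9.27 in Hx D. All Nx D arrays were below the Nx P arrays, and all Hx D arrays were above the Hx P arrays, so that Hx D overlapped with Nx P. The rise of Psmd9 in hypoxia was 0.89 ± 0.27 (SE; limma, adjusted p = 0.0246). Psmd10, gankyrin, differed by -0.35 and did not pass. Of the 2 genes outside the proteasome, Psmc3ip differed by -0.66 and Psme3ip1 by 0.42, and neither passed.

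Under normoxic conditions, no member passed in either direction by limma, against 1.29% higher and 0.293% lower of all probe sets. An unadjusted p under 0.05 (limma) was seen for 8 of the 50 members and for 2841 of all 22206 probe sets. That count of members is near the background. Of the 50 differences, 34 were negative, and the median was -0.19 (-0.01 over all probe sets). All 6 ATPase genes and all 6 beta genes had negative differences, with medians of -0.40 and -0.20, whereas the alpha genes had a median of 0.04. Non-overlap of the groups was seen for 5 members upward and 15 downward; over all probe sets it was 11.3% and 10.5%. Among the members with the lowest unadjusted p were Psmd9 (-0.95), Psmc5 (-0.72) and Psmc3ip (-1.09) on the lower side and Psme1 (0.62) on the higher side. With a replicate block in a fit of the 6 normoxia arrays, where same-numbered samples deviated together, 0 members passed as higher and 2 as lower, against 4.17% higher and 3.1% lower of all probe sets, so that the 2 are near the background of that fit. They were Psmd9 (limma, adjusted p = 0.0214) and Psmc3ip (limma, adjusted p = 0.0113), both lower with doranidazole.

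**Figure D4:**
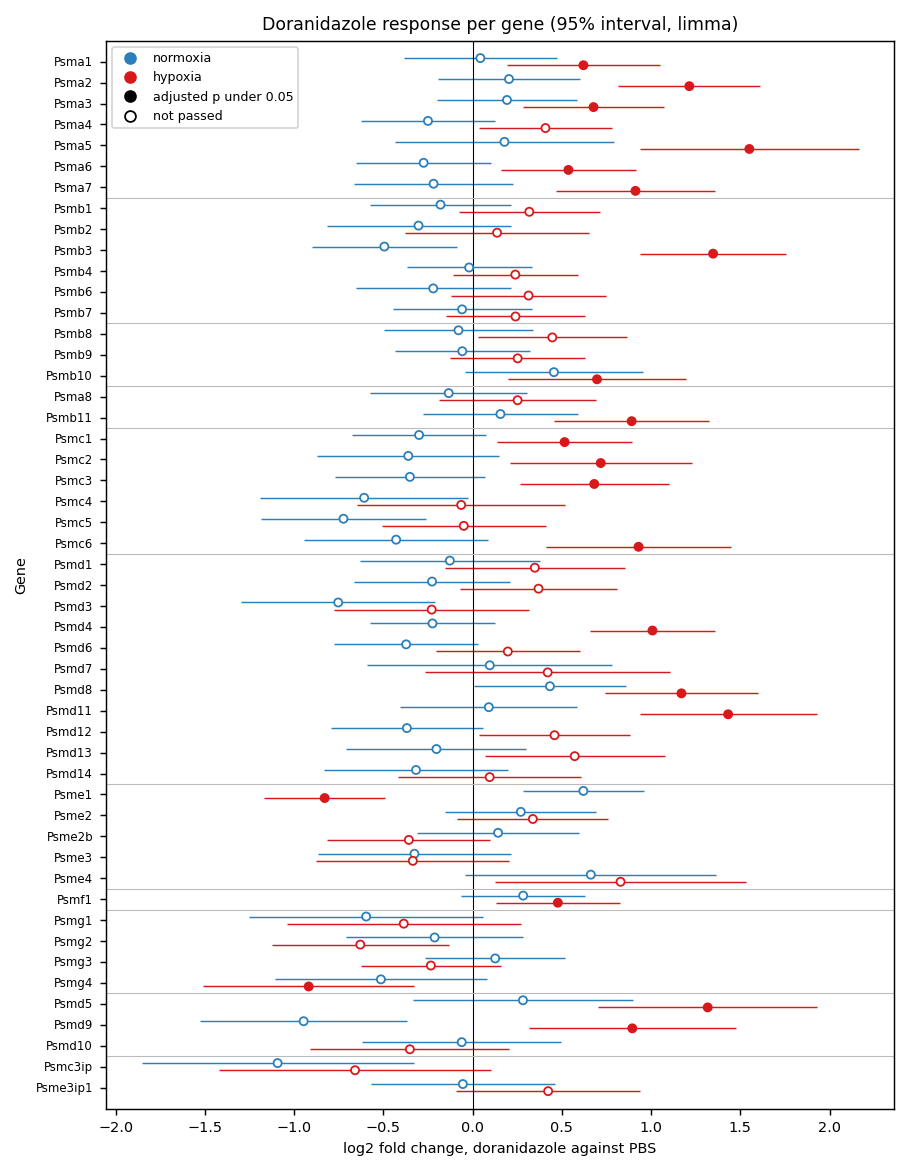
Log2 fold change of doranidazole against PBS for each of the 50 genes (rows, in role order) in normoxia (blue) and hypoxia (red), with 95% intervals from limma; filled points passed at an adjusted p under 0.05. No blue point is filled, 21 red points are, and the intervals of Psmb3, Psmd9 and Psme1 lie on opposite sides of 0 under the 2 oxygen conditions.

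The difference between the responses, the change in hypoxia minus the change in normoxia, passed for 13 members. Of these 12 were positive and 1 negative, against 5.02% and 8.5% of all probe sets. This comparison uses the same arrays as the other 2 drug comparisons. All 30 constitutive 26S subunits had a positive difference, with a median of 0.67 and 11 past the threshold (0.10 over all probe sets). They were 4 alpha genes, Psmb3, 4 ATPase genes and the non-ATPase genes Psmd4 and Psmd11. The count of 30 positive subunits held under quantile, median and loess scaling. Without Hx D replicate 3 it was 29.

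The differences were 1.84 ± 0.27 (SE) for Psmb3, 1.84 ± 0.38 for Psmd9, 1.37 ± 0.40 for Psma5 and 1.34 ± 0.32 for Psmd11 (limma, adjusted p = 0.000625, 0.00609, 0.0384 and 0.0156). For Psmb3 and Psmd9 the change in normoxia was negative, while for Psma5 and Psmd11 it was 0.18 and 0.09. Psme1 was the single member with a negative difference past the threshold, at -1.45 ± 0.22 (SE; limma, adjusted p = 0.000930). The immunoproteasome genes, the other activators, Psmf1 and the Psmg genes did not pass. Neither did Psma1, Psma3, Psmb11, Psmd5 and Psmd8, which rose in hypoxia (limma, adjusted p = 0.206, 0.248, 0.111, 0.113 and 0.104). The changes in hypoxia of Psma1, Psma3, Psmb10, Psmb11, Psmd5, Psmd8, Psmf1 and Psmg4 were thus not shown to differ from those in normoxia. The count of 13 dropped to 8 without Nx P replicate 1, Nx P replicate 3 or Hx P replicate 1, and to 7 without Nx D replicate 1, Nx D replicate 3 or Hx P replicate 2. Fewer of all probe sets passed in these fits too, 3.42% to 3.88% higher and 6.4% to 7.41% lower.

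With PBS alone, hypoxia against normoxia gave no member past the threshold by limma, against 1.46% higher and 0.518% lower of all probe sets. An unadjusted p under 0.05 (limma) was seen for 13 of the 50 members and for 3044 of all 22206 probe sets. The median over the members was -0.33, and -0.01 over all probe sets. Of the 30 constitutive subunits, 29 had a negative difference, with a median of -0.40, and Psmb4 was the exception (0.03). In 17 members the Hx P arrays all lay below the Nx P arrays, and in 1, Psmf1, all above; over all probe sets such non-overlap was 9.77% and 9.29%. Psmb3 differed by -0.69 (limma, adjusted p = 0.0866), Psmd9 by -0.73 and Psmb2 by -0.60. This comparison shares the Hx P arrays with the drug comparison in hypoxia, where the same arrays are the control.

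Set against Nx P, the median over the constitutive subunits was -0.58 to -0.15 in the Hx P arrays, -0.29 to -0.09 in the Nx D arrays and 0.09 to 0.31 in the Hx D arrays. Over all probe sets the same median was 0.05 to 0.08 in the Hx D arrays and -0.03 to 0.00 in the Hx P arrays. In Hx D replicate 1 the subunits' value of 0.09 was thus close to that of the whole array (0.08). For 8 of the 30 subunits all Hx D arrays lay above all Nx P arrays, and for 3 they lay below (21.2% and 19.3% of all probe sets). The upward count is near the background, and the downward count is under it. The 8 were Psma2, Psma5, Psma7, Psmb3, Psmb4, Psmd4, Psmd8 and Psmd11, and the 3 were Psmc4, Psmc5 and Psmd3. Psma5 and Psmd11 differed from Nx P by 1.51 and 1.30, while Psmc6 and Psma6, which rose in hypoxia, differed from it by 0.28 and 0.13. No test was made of Hx D against Nx P, where both oxygen and drug differ.

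Among proteasome partners whose symbols have other letters, 19 of 23 listed genes were measured. With doranidazole in hypoxia 3 of them rose and 0 fell, against 12.6% higher and 15.1% lower of all probe sets. The count of rises is thus near the background. Zfand2a, which encodes a stress-induced protein that binds the cap, had log2 signals of 12.89, 12.68 and 13.08 in Hx P and 15.56, 16.09 and 16.99 in Hx D, with no overlap, and rose by 3.33 ± 0.39 (SE), or 10.1-fold. Txnl1, a thioredoxin-like protein bound to the cap, rose by 1.00 ± 0.23, and Nploc4, a cofactor of the unfoldase Vcp, by 0.82 ± 0.16. For the difference between the responses, 3 of the 19 measured partners were higher and 0 lower, against 5.02% and 8.5% of all probe sets. They were again Zfand2a (3.09), Txnl1 (1.19) and Nploc4 (0.92). That comparison contains the change in hypoxia by which these genes were named, so it is not a separate result.

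No regulator on the list passed. Nfe2l1, the activator of subunit genes, differed by -0.21 ± 0.38 (SE; limma, adjusted p = 0.730) in hypoxia, and Nfe2l2 by -0.94 ± 0.39 (limma, adjusted p = 0.0899). Nfe2l2 was at 10.40, 11.04 and 11.22 in Hx P and at 9.63, 9.16 and 11.04 in Hx D, where replicate 3 stood apart from the others. Pomp, the maturation factor of the core, differed by 0.13. Transcript signals carry no information on the activity of these proteins. Of 6 ubiquitin and E1 genes only Uba6, an activating enzyme, was measured, with a difference of 0.22 that did not pass.

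Of 8 interferon and antigen processing genes analysed, 2 rose and 1 fell with doranidazole in hypoxia. Of all probe sets, 12.6% were higher and 15.1% lower, and the list was not tested as a set. Irf1, a transcription factor of the interferon response, had log2 signals of 6.11, 6.65 and 6.40 in Hx P and 8.08, 8.19 and 8.48 in Hx D, and rose by 1.86 ± 0.28 (SE; limma, adjusted p = 0.000307). Tapbp, the tapasin gene, rose by 0.84 ± 0.24, and the class I gene H2-K1 fell by 1.44 ± 0.37. In normoxia Tap1, a peptide transporter subunit, rose by 1.44 (limma, adjusted p = 0.0270), and in hypoxia it differed by 0.22. It was the only gene of the list that passed in normoxia, where 1.29% of all probe sets were higher. With PBS, hypoxia raised H2-K1 by 2.46 and lowered Erap1, a trimming peptidase, by 1.00 (1.46% of all probe sets were higher and 0.518% lower).

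Of the 18 matched members that rose in hypoxia, 10 had CCAAT in the window, 3 had the ISRE core and 2 had TGACNNNGC. Of the 22 matched members that did not pass, 6 had CCAAT, 0 had the ISRE core and 3 had TGACNNNGC. Both members that fell, Psme1 and Psmg4, had the ISRE core. These counts describe the letters printed above and were not tested.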

How the data were processed

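The authors hybridized RNA of GSC-H cells to Clariom S Mouse arrays and analyzed them with Transcriptome Analysis Console. They deposited log2 signals of 22206 probe sets on 12 arrays. Their summarization and scaling are not given in the sources used here. Two-sided differences were fitted with limma 3.58.1 in R 4.3.3 on the deposited values (12 arrays, 4 groups, no block), with Benjamini-Hochberg adjustment over all probe sets. Of the probe sets, 19572 carry 1 symbol and 2634 none. Arrays give no read depth, and their number, 3 per group, limits the precision.

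The members and lists were chosen with earlier results of these data known. Values per array were given for the immunoproteasome subunits and their counterparts, Psme1, Psme2, Psme3, Psme4, the inhibitor, and, in each comparison and direction, the 3 members with the largest change among those past the threshold. Values per array of Psmb11 were given outside this rule. Of the other lists, the 3 genes with the smallest p in hypoxia and the regulators were named. Tap1, H2-K1, Erap1 and the members outside this rule with single values were chosen after their values were seen.

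Deviations from group means correlated by 0.202, 0.329 and 0.326 between same-numbered samples of Nx P and Nx D, which thus count as paired. The correlations were -0.0202, -0.024 and -0.0466 in hypoxia and -0.0205, 0.264 and 0.356 between the PBS groups. Alternatives were 3 scalings, a filter on dim probe sets, a trended and robust prior, array weights, replicate blocks, fits of only the groups compared, a single probe set per gene, the study's fold and p thresholds, and each array left out. The script was tested on simulated data.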

Additional observations from a re-analysis of the deposited data

Results flagged for a closer look

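The responses to doranidazole under the 2 oxygen conditions differed, by the interaction term of the limma fit, for 13 members. Psme1, of the PA28 activator, had a difference of -1.45. Positive differences were 1.84 for Psmb3, 1.84 for Psmd9, 1.37 for Psma5, 1.36 for Psmc6, 1.34 for Psmd11, 1.23 for Psmd4, 1.13 for Psma7, 1.08 for Psmc2, 1.03 for Psmc3, 1.01 for Psma2, 0.82 for Psmc1 and 0.81 for Psma6. Of these, Psmb3, Psmc6, Psmd4, Psmd9, Psmd11 and Psme1 passed in all 20 settings run for this comparison.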

How the results depend on the processing

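No called member changed sign in any setting. Of the 21 members called in hypoxia, 9 passed in every setting in which they were tested (Psma2, Psma5, Psmb3, Psmb11, Psmd4, Psmd5, Psmd8, Psmd11 and Psme1); Psmb11 was not tested in 1 of the 22, where dim probe sets were left out. The counts moved as follows, and the cause was not tested. Against 21 in hypoxia, 11 passed with a replicate block over the groups compared, 13 with only these groups in the fit and 7 by the study's fold and p thresholds. With 1 array left out, 12 to 22 passed (12 without Hx P replicate 2). Fewer of all probe sets passed in hypoxia too, 6.87% higher and 11.3% lower with the block and 8.48% and 12.2% with only these groups. Without Hx P replicate 2 the shares were 9.66% and 13.3%, against 12.6% and 15.1% in the main fit. Replicate numbers do not pair the hypoxia samples, so the block there is a setting only. Against 0 in normoxia, 1 passed after loess scaling (Psmc5), 5 with array weights (Psme1 higher, and Psmc3ip, Psmc5, Psmd3 and Psmd9 lower), 2 with the replicate block over the groups compared, 1 with only these groups and 1 by the study's thresholds; the count was 0 with each array left out. More of all probe sets passed there too, 3.95% higher and 2.29% lower with array weights and 4.17% and 3.1% with the block. Against 13 for the difference between the responses, 7 to 13 passed with 1 array left out. Over all probe sets, 3.41% to 8.01% were higher and 6.4% to 11.6% lower in these fits. Against 0 between the PBS groups, 7 passed with array weights, all lower (5.56% of all probe sets were lower), 1 by the study's thresholds and 0 to 3 with 1 array left out (3 without Hx P replicate 3: Psma7, Psmb3 and Psmc3ip, all lower, against 3.5% of all probe sets). Quantile and loess scaling each gave 24 higher and 2 lower members in hypoxia. Of all probe sets, 13.5% were higher and 12.9% lower after quantile scaling, and 12.6% and 13.7% after loess scaling. The block over all 12 arrays gave 18 higher and 3 lower, against 12.8% and 15.9% of all probe sets. Array signals have no read depth. Psmb11, Psma8 and Psmg3 lay below the 30th percentile of mean signal, where background limits the measurement. Psmb8 and Psmb9 lay just above it, at percentiles 31.8 and 30.5.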
